A study of Homo sapiens with 7 samples.

Results

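Androgen supply in prostate cancer cells depends on a short chain of enzymes, and the glucocorticoid receptor is a nuclear receptor that can act in the same cells. The loci of 7 such genes were examined for peaks of HOXB13 acetylated at lysine 13 (HOXB13-K13ac): CYP17A1, HSD3B1, AKR1C3, SRD5A1, UGT2B15, UGT2B17 and NR3C1. They were chosen by name and position, with earlier results of these data known. There were 6 fixed hg19 windows totalling 740 kb, because UGT2B17 and UGT2B15 are neighbours and share a window. On hg19 the windows ran from 104.57 to 104.62 Mb of chromosome 10 for CYP17A1, 120.02 to 120.08 Mb of chromosome 1 for HSD3B1 and 5.05 to 5.18 Mb of chromosome 10 for AKR1C3. They ran from 6.6 to 6.7 Mb of chromosome 5 for SRD5A1, 69.38 to 69.56 Mb of chromosome 4 for the UGT2B pair and 142.61 to 142.83 Mb of chromosome 5 for NR3C1. A peak belonged to a window if it shared at least 1 bp with it. The 3 replicate lists placed 21 peaks there, 6 of the 41303 peaks of replicate 1, 11 of the 45216 of replicate 2 and 4 of the 18232 of replicate 3.

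The libraries came from C4-2B, an established castration-resistant prostate cancer line derived from LNCaP, grown in charcoal-stripped serum, which is low in steroids. All groups share that medium and no other treatment, and C4-2B is 1 line, so other prostate cells are not represented. There were 3 HOXB13-K13ac precipitations, 2 IgG precipitations as non-specific controls and 2 inputs of sheared chromatin. HOXB13-K13ac replicate 1 has the library series number 2898 and replicates 2 and 3 have 3047, and each number also names 1 IgG and 1 input library. The peaks of replicates 2 and 3 were called against input and, in further lists, against IgG. A sixth HOXB13-K13ac list, called against input, matches no library label and is named the unassigned list.

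HOXB13 is a prostate-lineage homeobox factor that works on many of the same enhancers as the androgen receptor. In androgen synthesis CYP17A1 makes the precursor dehydroepiandrosterone, HSD3B1 turns it into androstenedione, AKR1C3 reduces androstenedione to testosterone, and SRD5A1 carries out the reduction that leads to dihydrotestosterone. UGT2B15 and UGT2B17 attach glucuronic acid to dihydrotestosterone and its metabolites, which clears them from the cell. NR3C1 encodes the glucocorticoid receptor, which recognises DNA elements much like those of the androgen receptor.

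The promoters of these genes differ in base composition. RefSeq promoters on GRCh38.p14, each 250 bases before to 50 bases after a transcript start, were found for 6 of the 7 genes, 14 promoters in all, and UGT2B17 had no entry. The SRD5A1 promoter had a GC content of 71.0% and 33 CpG dinucleotides, above the median of 58.7% and 14 over 35116 promoters. The 7 NR3C1 promoters ranged from 34.7% to 82.3% GC, and 5 of them held between 23 and 51 CpG. The CYP17A1 promoter had 56.3% GC and 3 CpG, and both HSD3B1 promoters had 1 CpG. The single UGT2B15 promoter and both AKR1C3 promoters had 0 CpG, with 30.3% GC for UGT2B15 and 33.7% and 36.7% for AKR1C3.

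The promoter stretches of the windows with the most enriched sites, SRD5A1 and CYP17A1, are shown beside that of UGT2B15, which held matches to searched motifs. Each line gives the 250 bases before the transcript start, 5′ to 3′ on the strand of the gene, and capitals mark motif matches. On GRCh38.p14 they are chr5:6633190-6633439 on the plus strand for SRD5A1, chr10:102837414-102837663 on the minus strand for CYP17A1 and chr4:68670653-68670902 on the minus strand for UGT2B15. These positions belong to another build than the peaks, so whether a peak covers a promoter was not determined here.
SRD5A1: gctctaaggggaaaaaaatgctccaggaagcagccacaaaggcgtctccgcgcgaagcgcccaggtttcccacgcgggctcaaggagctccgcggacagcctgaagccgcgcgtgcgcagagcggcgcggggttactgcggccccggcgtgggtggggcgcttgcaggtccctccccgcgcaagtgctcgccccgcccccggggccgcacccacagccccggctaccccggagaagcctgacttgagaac
CYP17A1: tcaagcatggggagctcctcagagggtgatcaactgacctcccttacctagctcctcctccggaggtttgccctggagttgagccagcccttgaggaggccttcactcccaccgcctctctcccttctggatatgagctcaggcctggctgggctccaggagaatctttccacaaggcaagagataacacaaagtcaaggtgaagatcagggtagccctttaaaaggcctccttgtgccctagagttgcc
UGT2B15: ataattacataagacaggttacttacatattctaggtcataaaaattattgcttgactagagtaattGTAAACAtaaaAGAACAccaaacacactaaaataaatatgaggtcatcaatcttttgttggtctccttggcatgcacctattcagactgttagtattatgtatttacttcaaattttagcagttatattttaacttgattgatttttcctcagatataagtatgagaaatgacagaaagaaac

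Motifs were searched on both strands over the full promoters. The HOXB13 sequences CCAATAAA and CTCGTAAA, which occur in 0.934% and 0.137% of all promoters, had 0 matches in the 14. The FOXA1 sequence TGTTTAC, present in 3.42% of all promoters, matched the UGT2B15 promoter 183 bases before its start, on the opposite strand. It also matched 1 of the 7 NR3C1 promoters, 59 bases before its start on chr5:143403326-143403352 of GRCh38.p14, minus strand.
NR3C1: aaggggcggcTGTTTACttcctttttt
The steroid receptor half-site AGAACA, present in 14.8% of all promoters, matched only UGT2B15, 172 bases before the start and 4 bases from the FOXA1 match. These are letter matches, and the peak lists on hg19 were not placed on them.

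Peaks of at least 1 replicate library were present in all 6 windows. Replicate 1 had peaks in 4 windows, replicate 2 in 5 and replicate 3 in 2. Cutting all chromosomes into tiles of 115 kb, the median length of the windows, gave a peak in 45.3% of tiles for replicate 1, 52.2% for replicate 2 and 40.6% for replicate 3. The share of tiles with a peak of any replicate was not computed, so the count of all 6 windows has no background here. The densities of peaks in the 6 windows were 8.11 per Mb for replicate 1 (exact Poisson 95% interval 2.98 to 17.6), 14.9 for replicate 2 (7.42 to 26.6) and 5.41 for replicate 3 (1.47 to 13.8). Over all chromosomes the densities were 13.8, 15.1 and 6.08 per Mb for the same lists, and each lay within the interval of the windows. These intervals cover counting error only.

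A site was called replicated when peaks of at least 2 of the 3 HOXB13-K13ac libraries overlapped by at least 1 bp. There were 6 such sites, in 4 of the 6 windows, and 39.9% of 115 kb tiles held one. SRD5A1 had 3 sites in 100 kb, all within 5.09 kb. Of tiles of that window length, 37.2% held at least 1, with a median of 0 and a mean of 0.912 per tile. The share of tiles with at least 3 was not computed. CYP17A1 had 1 site in 50 kb, where 24.5% of equal tiles held one. AKR1C3 had 1 site in 130 kb (42.3% of equal tiles), and the UGT2B17 and UGT2B15 window 1 in 180 kb (49.3%). HSD3B1 in 60 kb and NR3C1 in 220 kb had none, compared with 27.6% and 53.4% of equal tiles that held at least 1. The density over the 6 windows was 8.11 sites per Mb (2.98 to 17.6), against 9.02 over all chromosomes (8.91 to 9.13). The value over all chromosomes lay within the interval of the windows, so no difference was seen at this number of sites. Both intervals treat sites as independent, although the 3 at SRD5A1 lie close together, and no test was made.

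**Figure D1:**
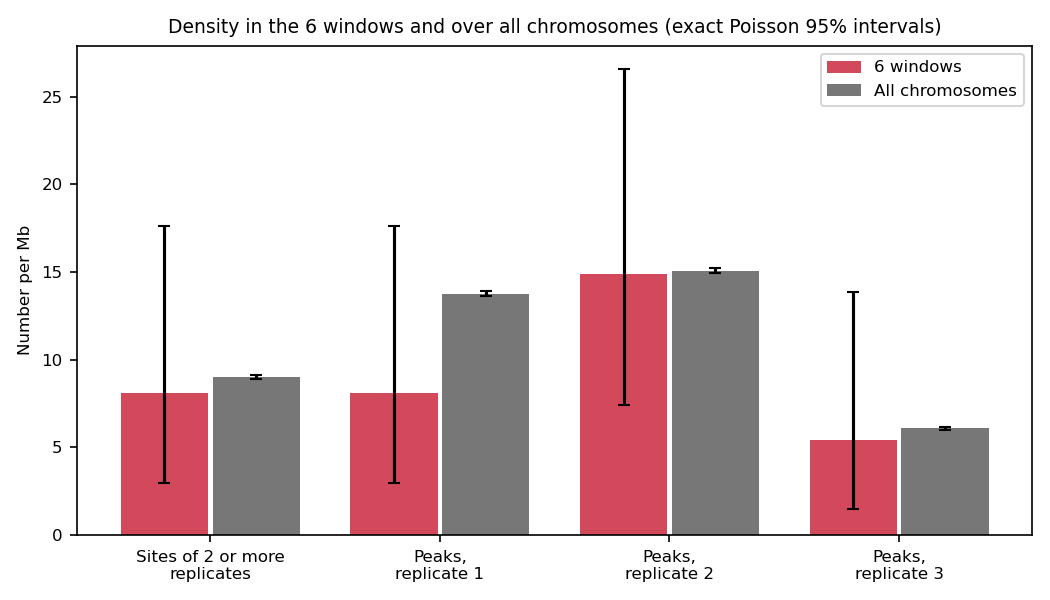
Number of sites or peaks per Mb (vertical axis) in the 6 windows and over all chromosomes, for sites of at least 2 replicates and for the peaks of each replicate list. Bars give the density and error bars exact Poisson 95% intervals. In all 4 pairs the value over all chromosomes lies within the interval of the windows.

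**Figure D2:**
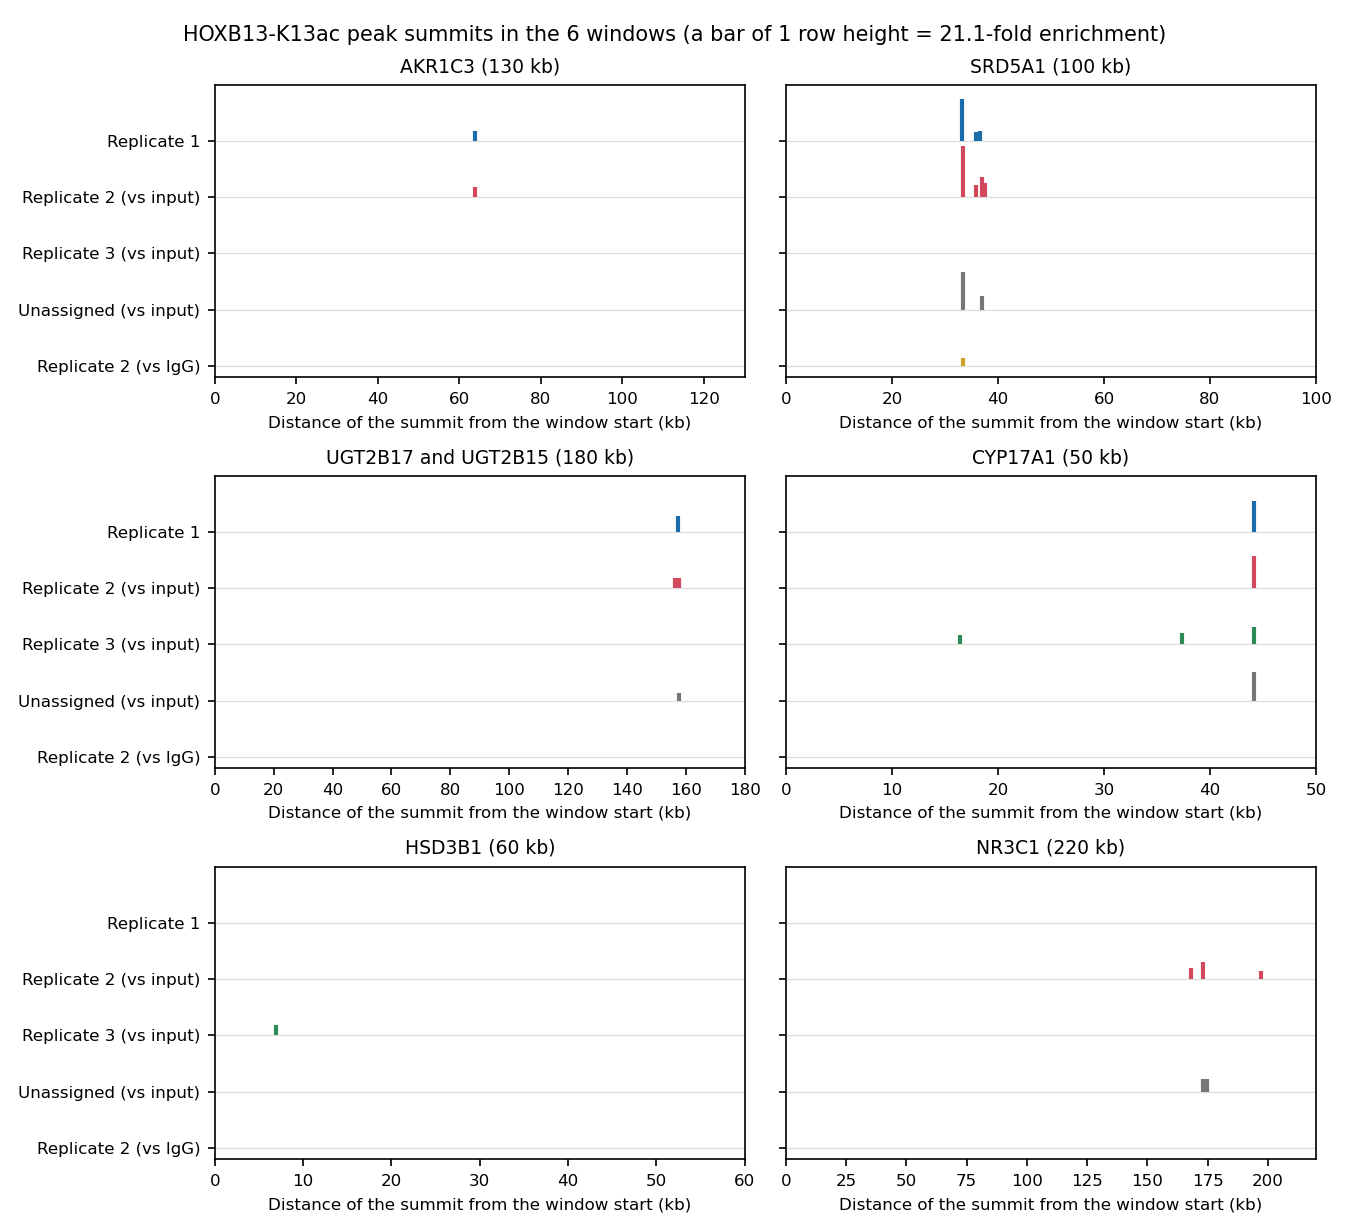
Peak summits of 5 lists in each window, by distance in kb from the window start (horizontal axis). Bar height gives fold enrichment, and each list has its own row. Replicates 1 and 2 both have bars in the AKR1C3, SRD5A1, UGT2B and CYP17A1 panels, with the tallest in that of SRD5A1. The NR3C1 panel has bars of replicate 2 and the unassigned list, and the HSD3B1 panel 1 bar of replicate 3.

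SRD5A1, the gene of a steroid reductase, lay in the window with the strongest HOXB13-K13ac peaks of the 6. The strongest site covered chr5:6632523-6634329 (hg19), 1807 bp, and was present in replicates 1 and 2. Its fold enrichment, the authors' value at the summit relative to the control, was 15.8 in replicate 1 and 18.9 in replicate 2. Its −log10 q, also the authors', was 104 in replicate 1 and 45.3 in replicate 2. By q it ranked 1080 of 41303 in replicate 1, among the top 2.61%, and 3598 of 45216 in replicate 2, among the top 7.96%. Both peaks were broad for their lists, 1694 bp and 1807 bp, where the list medians were 555 bp and 635 bp. The summits lay 46 bp apart, and the replicate 1 peak was contained in that of replicate 2.

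Behind this site, toward higher coordinates, 2 weaker sites followed within the same 5.09 kb. The middle site, chr5:6635635-6636022, started after a gap of 1305 bp and had fold enrichments of 3.15 in replicate 1 and 4.40 in replicate 2, with summits 8 bp apart. The last site, chr5:6636343-6637616, followed after a further 320 bp. It held 1 peak of replicate 1 with a fold enrichment of 3.76 and 2 peaks of replicate 2 with 7.57 and 5.40. The summits of the strongest peaks of this site were 461 bp apart, so the libraries shared sequence here but not the position of the maximum. Among all sites that hold the library, the strongest SRD5A1 site exceeded 95.9% by fold enrichment in replicate 1 and 85.3% in replicate 2. The middle site exceeded only 8.92% and 5.16%, and the last site 19.5% and 36.1%.

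Replicate 3 had no peak in the SRD5A1 window, and of all 27046 replicated sites only 4877 held replicate 3. Its nearest peaks lay 13.1 kb beyond the upper edge of the window, with a fold enrichment of 3.60, and 168 kb below the lower edge, with 4.30. All 3 SRD5A1 sites therefore rested on replicates 1 and 2. By the definition of a site, 0 of them could be kept if either were left out. Replicate 2 called against IgG had 1 peak in the window, chr5:6633148-6633526, with its summit on the same base as that of the strongest input peak of replicate 2. Its fold enrichment over IgG was 3.02, and its −log10 q was 0, so it did not pass a q of 0.05. In the table of protein-coding genes on GRCh38.p14, SRD5A1 has NSUN2, an RNA methyltransferase gene, as its neighbour on the side of lower coordinates. Which of these genes the peaks belong to was not determined here.

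**Figure D3:**
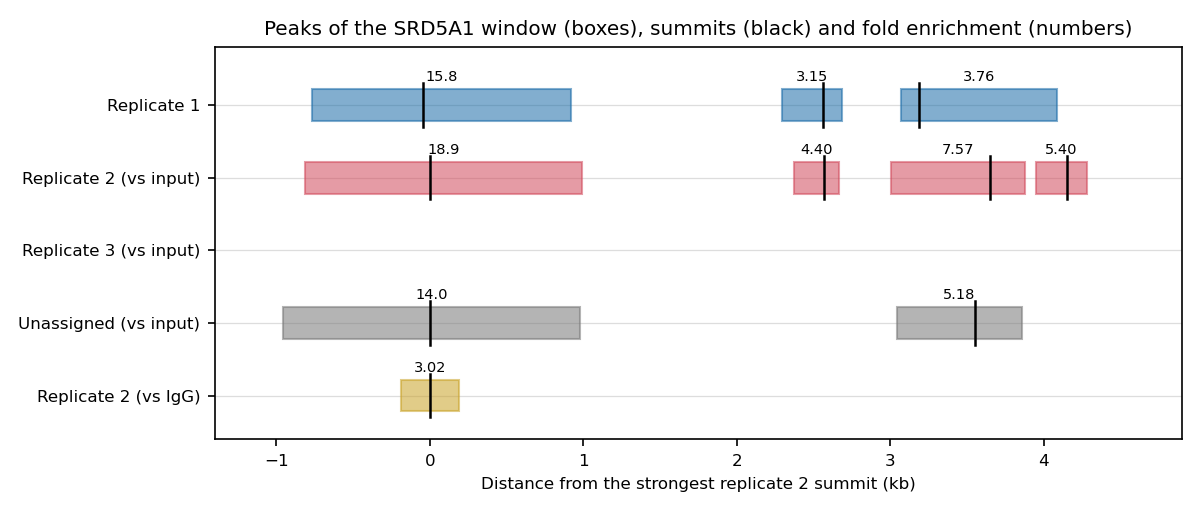
Peaks of 5 lists in the SRD5A1 window, by distance in kb from the strongest replicate 2 summit. Boxes are peaks, black lines summits and numbers fold enrichment. The strongest peaks of replicates 1 and 2 and of the unassigned list coincide, the IgG-controlled peak lies within them, and the row of replicate 3 is empty.

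The CYP17A1 window held the only site of all 3 HOXB13-K13ac libraries among the 6 replicated sites, where 17.0% of all replicated sites are of that kind. The window is named for CYP17A1, whose enzyme commits steroid precursors to androgen synthesis. The site in it was not assigned to a gene here. The site covered chr10:104613629-104614627 (hg19), 999 bp, and 13.2% of 115 kb tiles held a site of all 3. Replicate 1 had a fold enrichment of 11.6 there, replicate 2 of 11.9 and replicate 3 of 6.60, each above the upper quartile of its own list (7.37, 11.0 and 5.13). By fold enrichment the site exceeded 87.0%, 63.8% and 82.2% of all replicated sites that hold replicates 1, 2 and 3, respectively. By q the peaks were in the top 3.50% of replicate 1, 22.9% of replicate 2 and 4.98% of replicate 3. The summits of replicates 1 and 3 were 1 bp apart and that of replicate 2 lay 34 bp and 33 bp from them. The replicate 3 peak, 160 bp wide, lay wholly inside those of replicates 1 and 2, which were 639 bp and 999 bp wide. Without replicate 1 or without replicate 2 this site was the only 1 of the 6 that was kept. That follows from the definition of a site, since the other sites held replicates 1 and 2 alone.

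The position of this site within the window was at its far end, with summits 44.1 kb to 44.2 kb from the lower edge and 5.82 kb to 5.85 kb from the upper edge. CYP17A1 is followed on the side of higher coordinates by BORCS7, a gene of a lysosome positioning complex, in the table of protein-coding genes on GRCh38.p14. The site was at the end of the window on that side, and whether it lies at CYP17A1 or at its neighbour was not determined here. Replicate 3 had 2 more peaks in the window, chr10:104586326-104586559 with a fold enrichment of 3.55 and chr10:104607279-104607432 with 4.11. They were below the list median of 4.40 and shared no sequence with a peak of any other list. Outside the window the nearest replicated sites were 65.4 kb below and 57.4 kb above it, and 23 sites lay in the 1 Mb around its centre.

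In the window of UGT2B17 and UGT2B15, the genes that clear androgens by glucuronidation, 1 replicated site was found at chr4:69537320-69538311 (hg19), 992 bp. Replicate 1 was enriched 6.03-fold there with a −log10 q of 14.3, and replicate 2 was enriched 3.79-fold with 2.93. The libraries ranked it differently, within the top 44.7% of replicate 1 by q and within the top 87.6% of replicate 2. Their summits were 76 bp apart. Replicate 2 had another peak at chr4:69535977-69536318 with a fold enrichment of 3.65, and replicate 1 had none there. All 3 peaks had their summits between 156 kb and 158 kb from the lower edge of the 180 kb window, and no replicate had a peak between that edge and them. UGT2B17 and UGT2B15 are close paralogs, and the handling of reads that match both is not stated in the labels. A stretch without peaks there therefore does not show that the protein was absent.

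AKR1C3, the reductase that makes testosterone, had 1 replicated site, at chr10:5113573-5114081 (hg19), 509 bp. The 2 peaks shared 169 bp, with fold enrichments of 3.63 in replicate 1 and 3.87 in replicate 2. Both were below the list medians of 4.67 and 6.50. Their summits were 160 bp apart, so the site was lost when summits had to lie within 100 bp, and its −log10 q was 5.93 in replicate 1 and 2.85 in replicate 2. The next replicated site lay 727 kb below the window and 275 kb above it. AKR1C3 has close paralogs beside it, among them AKR1C2, so the same limit on reads that match several places applies.

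NR3C1, the glucocorticoid receptor gene, had 3 peaks in its window, all of replicate 2, and no replicated site. The strongest, chr5:142782720-142783248 (hg19), was enriched 6.20-fold with a −log10 q of 6.73, close to the list medians of 6.50 and 7.64. The others were chr5:142778139-142778508 with a fold enrichment of 3.97 and chr5:142806890-142807164 with 3.04, above only 11.1% and 0.829% of the list. Replicate 1 was empty for 247 kb below the window and 536 kb above it. Replicate 3 had its nearest peak 9.90 kb below the window, with a fold enrichment of 4.78. In the 1 Mb around the centre of the NR3C1 window lay 3 replicated sites, where the other windows had 6 to 23. The density over all chromosomes was 9.02 per Mb, and the spread over tiles of 1 Mb was not computed.

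HSD3B1, whose enzyme turns dehydroepiandrosterone into androstenedione, had no peak of replicate 1 or 2 and 1 peak of replicate 3. That peak, chr1:120026612-120027010 (hg19), was enriched 4.00-fold with a −log10 q of 1.72, compared with list medians of 4.40 and 2.12. Just outside the window, 4.50 kb above its upper edge, replicate 2 had a peak with a fold enrichment of 8.05, which the unassigned list also held with 5.14. Replicate 1 had its nearest peaks 85.6 kb below and 88.5 kb above. Although the window held no replicated site, 17 fell in the 1 Mb around its centre. HSD3B1 has its paralog HSD3B2 beside it, so the limit on reads that match several places applies here too.

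Enrichment was uneven among the loci. Among window peaks, 5 of 6 in replicate 1, 5 of 11 in replicate 2 and 1 of 4 in replicate 3 had a −log10 q of 5 or more. The corresponding shares of the whole lists were 80.7%, 67.2% and 6.28%. In replicates 1 and 2 the SRD5A1 and CYP17A1 windows supplied the only peaks above the upper quartile of fold enrichment, 1 each in both lists. In replicate 3 only the shared CYP17A1 peak was above it. These values describe single lists, and no test was made between loci.

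**Figure D4:**
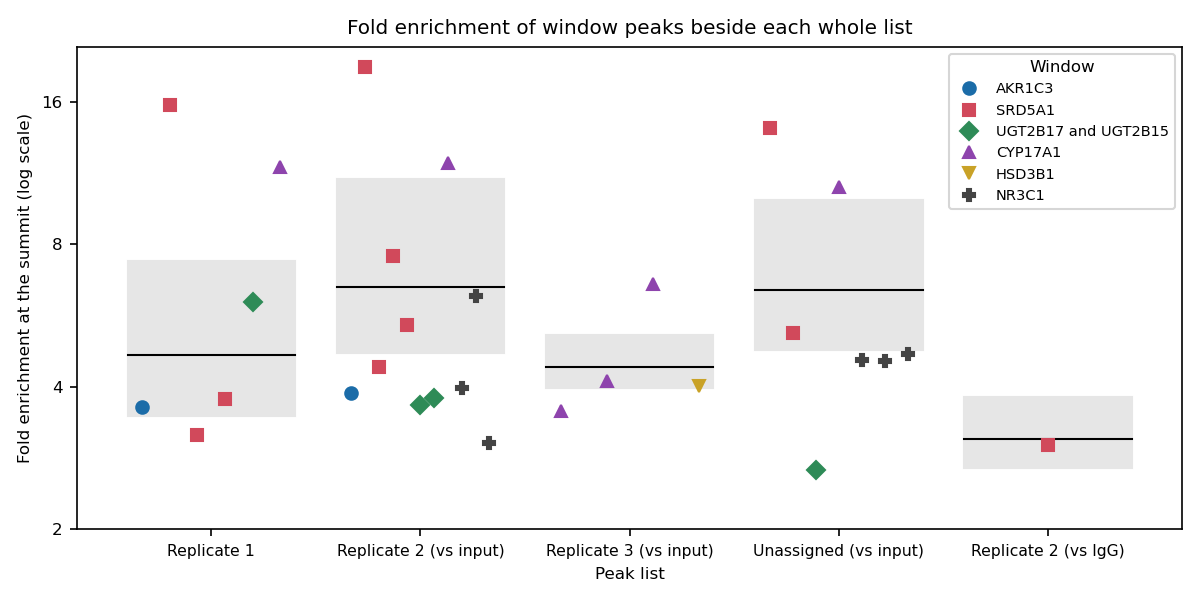
Fold enrichment at the summit (log axis) of each window peak, by list, with symbols for the windows. Grey boxes span the middle 50% of all peaks of a list and black lines mark its median (4.67, 6.50, 4.40, 6.39 and 3.10 from left to right). In the 4 lists other than the one against IgG, points above the grey box belong to SRD5A1 or CYP17A1 alone.

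IgG served as the background precipitation. Of the 6 replicated sites, 1 (the strongest SRD5A1 site) was called in replicate 2 against IgG, where 23.2% of all replicated sites were, and 16.5% of 115 kb tiles held a peak of that list. Replicate 3 against IgG had 0 peaks in the windows. Its whole list holds 1 peak, so it cannot tell the loci apart. For replicate 1 the kind of control is unnamed, so its enrichments may be set against another background than those of replicate 2.

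Of the 6 replicated sites, 4 were present in the unassigned list, compared with 86.9% of all replicated sites. The absent sites were that of AKR1C3 and the middle one of SRD5A1. The list had peaks in 4 of the windows, where 44.1% of 115 kb tiles held one of its peaks. At the site of the CYP17A1 window its fold enrichment was 10.6 and at the strongest SRD5A1 site 14.0. Its summits there were within 50 bp of every replicate that held these sites. At the last SRD5A1 site it was 5.18, with its summit 368 bp from that of replicate 1 and 93 bp from that of replicate 2. At the UGT2B site it was 2.66, with summit distances of 101 bp from replicate 1 and 25 bp from replicate 2.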

How the data were processed

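Peak lists of HOXB13-K13ac ChIP-seq in C4-2B cells were analysed as deposited. The submitters' processing notes name hg19 (GRCh37), BWA, Bowtie2, MACS2 and CASAVA 1.4. What each tool did, the threshold of calling, the filter and any pooling of reads are not given in the sources used. Fold enrichment is a ratio deposited by the authors for each peak summit, and the −log10 q was deposited by the authors as the caller gave it. Sequencing depth is unknown, since no read counts are in the lists.

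Lists were tied to libraries by the spelling of the labels. Replicates 1 and 3 differ in it by 1 punctuation mark, and an exchange of their lists would exchange their values here. A list against input with a suffix found on no label was kept apart. Nothing in the labels says whether replicates came from separate cultures.

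Peaks of the 3 replicate lists were merged when they shared at least 1 bp, and sites needed 2 or more libraries (Python 3.11.15, NumPy 2.4.6, pandas 2.3.3, SciPy 1.17.1, matplotlib 3.10.9). Tiles spanned each chromosome between its outermost peaks and include assembly gaps, which lowers their shares. The code was tested on simulated lists. The loci, windows and rules were chosen with earlier results of these data known. All 7 genes are named, with every site and replicate peak of their windows. Other genes of steroid metabolism were not analysed here, because no annotation of hg19 was used. Alternatives changed the overlap rule, the q threshold, the libraries and the window edges. No tests were made.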

Additional observations from a re-analysis of the deposited data

Results flagged for a closer look

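The unassigned HOXB13-K13ac list lies outside the comparisons of replicates, and it held 7 peaks in the windows. It was called against input, and no list of a control library was used here to set beside it. Of the 7 peaks, 4 lay in replicated sites and 1 more shared sequence with a peak of replicate 2 alone, at NR3C1, where the fold enrichment was 4.55 in this list and 6.20 in replicate 2 and the summits lay 53 bp apart. The other 2 also lay in the NR3C1 window, chr5:142783600-142783912 and chr5:142784689-142785039 (hg19), with fold enrichments of 4.54 and 4.69, and no replicate had a peak there. Whether this list shares reads with a replicate was not tested.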

How the results depend on the processing

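The count of loci with a replicated site, 4 as reported, was 2 with a −log10 q of at least 5 or with the same number of strongest peaks from each list, and the count of sites, 6 as reported, was 3 and 2 in these settings. Leaving out 1 replicate gave 1 to 4 loci and 1 to 6 sites, with the low values without replicate 1 or without replicate 2. These low values follow from the definition of a site, since the sites lost held replicates 1 and 2 alone. By locus, leaving out 1 replicate gave 0 to 3 sites at SRD5A1, 0 to 1 at AKR1C3 and 0 to 1 at the UGT2B window. The AKR1C3 site was absent with summits within 100 bp (0), and with the q threshold AKR1C3 and the UGT2B window had 0. The q threshold left 5 peaks of replicate 2 and 1 of replicate 3. With windows widened by 50 kb there were 18 peaks of replicate 2 and 7 of replicate 3, and 7 sites. With the unassigned list in place of replicate 3 there were 5 loci and 7 sites, NR3C1 being the added locus. That list is tied to no library, so the added site does not count as replicated. At a q of 0.05 or less in the IgG list, 0 sites were called against IgG. Of all peaks of that list, 21.5% reach this q. The share of all replicated sites called at it was not computed, so the 0 has no background here. Of 66 recomputed values, 44 stayed within 1.5 times the reported count, where 2 against 3 and 0 against 0 both counted as unchanged. Some of these were fixed in advance. A window with 0 sites cannot gain 1 when a library or weaker peaks are left out. All 6 replicated sites held replicates 1 and 2, so leaving out replicate 3 or putting the unassigned list in its place could remove none. No paired analysis was possible because the results are descriptions of peak lists and come from no test. Read depths are unknown, so a missing peak in a window cannot be read as missing binding.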
